A study of Zea mays with 12 samples.

Results

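The 6 loci described here are zma-MIR156f, zma-MIR156k, zma-MIR159d, zma-MIR159f, zma-MIR319b and zma-MIR396a, genes of maize from which microRNAs of the MIR156, MIR159, MIR319 and MIR396 families are made. They were chosen by name, for families known to act on growth and on the passage between growth phases, and are 6 of the 25 microRNA loci and of the 26451 entries in the expression table. Roots of the inbred line B73 were collected from seedlings germinated for 3 days and then grown for 24 h in a nutrient medium, and their poly(A) RNA was sequenced. The 4 groups were an N-deprived control, 1 mM nitrate, the N-deprived medium with 2 µM TIS108, and 1 mM nitrate with 10 µM PCIB. TIS108 inhibits the synthesis of strigolactones, hormones made from carotenoids, and PCIB (p-chlorophenoxyisobutyric acid) inhibits the action of auxin. Each group had 3 samples of 4 to 8 pooled plants, but the values are 1 FPKM value (read fragments per transcript, relative to its length and to all mapped fragments) per entry and group. There is therefore no SD, standard error or p-value for any difference below, no difference could be set against the spread between replicates, and the depth behind the values is unknown.

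A microRNA gene is transcribed into a long primary transcript, usually capped and polyadenylated, from which a hairpin and then the short mature microRNA are cut. The mature microRNA pairs with messenger RNAs of its target genes and causes their cleavage or blocks their translation. In plants the miR156 family represses SPL (SBP-box) transcription factor genes, which promote the passage from juvenile to adult growth, and miR396 represses GRF genes, which promote cell proliferation. The miR159 family represses GAMYB-type MYB genes and the miR319 family TCP genes, and these microRNA families are related in sequence. In Arabidopsis, miR156 and its SPL targets also act on lateral root formation, and miR396 and its GRF targets on the root meristem. The FPKM values are reads over the loci in a poly(A) library, so they describe precursor transcripts and not mature microRNAs. In the bulk tissue, fewer cells that transcribe a locus and less RNA per cell cannot be told apart.

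All 6 loci had reads in every group, and 0 of their 24 values were at 0. Over the 4 groups, MIR156k had the highest mean level and MIR159d the lowest, in the order MIR156k, MIR156f, MIR159f, MIR319b, MIR396a and MIR159d. Their mean levels were 8.25, 7.34, 5.77, 2.91, 2.75 and 1.15 FPKM. MIR156k lay above 56.8% of all entries by mean level and MIR159d above 17.7%, so that the loci spanned the lower and middle levels of the table. Without replicates it cannot be said which neighbours in this order differ beyond their spread. The order itself shifted with treatment, since MIR156k stood above MIR156f in N-deprived roots and in those given nitrate plus PCIB, and below it under nitrate or TIS108. Of the 24 values, 10 reached 5 FPKM, all of them at MIR156f, MIR156k and MIR159f. Each of the 6 loci shared its values in all groups with 1 other entry, an RNA gene annotated by Ensembl, within 0.001 FPKM. Reads of the named locus and of that entry cannot be told apart here.

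**Figure D1:**
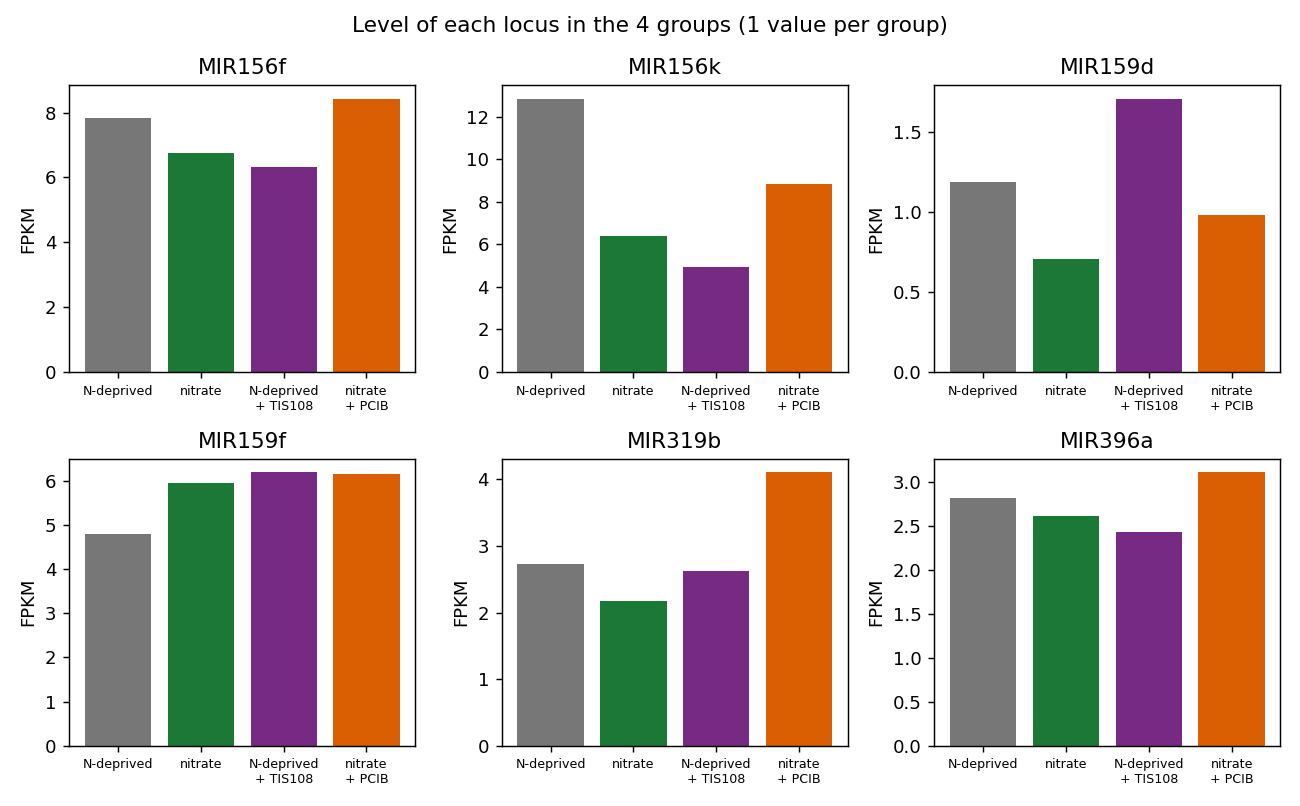
FPKM (vertical axis, from 0, a separate scale per locus) of the 6 loci in the 4 groups, 1 bar for the authors' single value of each group. MIR156k is highest in the N-deprived control (12.8 FPKM), MIR319b with nitrate plus PCIB (4.11 FPKM) and MIR159d with TIS108 (1.71 FPKM), while the bars of MIR396a lie between 2.43 and 3.11 FPKM.

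MIR156k, of the family that represses SPL genes, varied most. It stood at 12.8 FPKM in the N-deprived control, 6.38 FPKM under nitrate, 4.92 FPKM under TIS108 and 8.84 FPKM with nitrate plus PCIB. The control was the highest group and TIS108 the lowest, with a ratio of 2.61 between them. MIR156f, of the same family, stood at 7.83, 6.77, 6.32 and 8.43 FPKM in the same order of groups. TIS108 was again the lowest group, but the highest was nitrate plus PCIB, and the ratio of highest to lowest was 1.33.

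MIR159d, of the family that represses GAMYB-type genes, stood at 1.19 FPKM in the control, 0.706 FPKM under nitrate, 1.71 FPKM under TIS108 and 0.982 FPKM with nitrate plus PCIB. Its level was highest with TIS108 and lowest with nitrate, a ratio of 2.42, but these are low values, where FPKM is least stable. MIR159f, of the same family, stood at 4.80, 5.95, 6.19 and 6.15 FPKM. The control was the low group there, and the 3 treated groups lay close together.

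MIR319b, of the family that represses TCP genes, stood at 2.73 FPKM in the control, 2.17 FPKM under nitrate, 2.63 FPKM under TIS108 and 4.11 FPKM with nitrate plus PCIB. Nitrate plus PCIB stood above the other groups, which lay between 2.17 and 2.73 FPKM. MIR396a, of the family that represses GRF genes, stood at 2.82, 2.62, 2.43 and 3.11 FPKM. Its highest and lowest groups were those of MIR156f, nitrate plus PCIB and TIS108, and its ratio of highest to lowest was 1.28. In the RefSeq annotation (Zm-B73-REFERENCE-NAM-5.0) the gene after MIR396a is MIR396e, another locus of the family, and the neighbours of the other 5 loci are no microRNA genes. The gene listed before MIR396a, MIR156f, MIR156k, MIR159d and MIR319b is in each case a long noncoding RNA gene. Whether reads of such neighbours enter the values was not tested.

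The range of a locus over the 4 groups was taken as its highest minus its lowest log2(FPKM + 1). It was 1.23 for MIR156k, 0.69 for MIR319b, 0.67 for MIR159d, 0.36 for MIR156f, 0.31 for MIR159f and 0.26 for MIR396a. A wider range than that of MIR156k was found in 4.40% of all entries, and a wider range than those of MIR319b and MIR159d in 16.8% and 17.7%. MIR396a was among the steadiest microRNA loci, at rank 24 of 25 by range, with 65.1% of all entries ranging wider. The median range was 0.52 for the 6 loci, 0.62 for the other 19 microRNA loci and 0.34 for all entries.

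**Figure D2:**
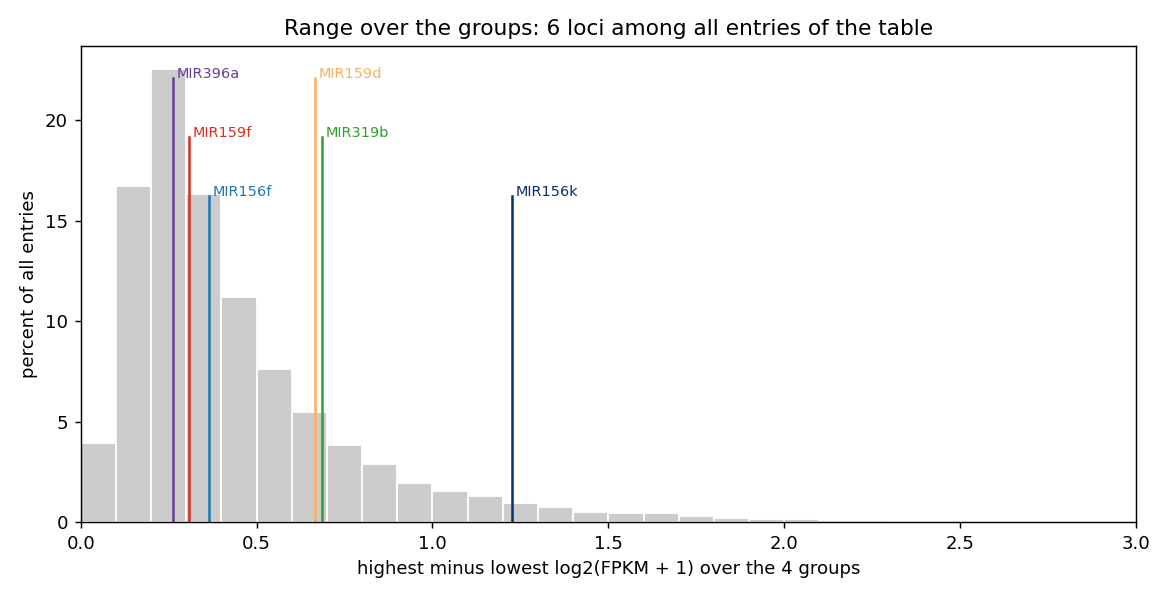
Percent of all 26451 entries (vertical axis) by the range of log2(FPKM + 1) over the 4 groups (horizontal axis, bins of 0.1), with the ranges of the 6 loci as vertical lines whose heights have no meaning. MIR396a, MIR159f and MIR156f lie in the body of the distribution, MIR159d and MIR319b at its shoulder and MIR156k in its tail, and 59 entries lie beyond the plotted axis.

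The first comparison asked how roots respond to nitrate. With nitrate 5 of the 6 loci were below the N-deprived control and MIR159f was above it, and the sign of MIR396a turned after quantile normalization. The widest difference was that of MIR156k, whose level with nitrate was 0.497 times that of the control. A locus was called different if FPKM + 1 differed by a factor of 2 or more and the higher of the compared groups reached 5 FPKM. By this limit 0 of the 6 loci differed, where 4.02% of 15510 entries did. Only MIR156f, MIR156k and MIR159f reached 5 FPKM in either group and could have been counted. The difference of MIR156k on the log2(FPKM + 1) scale was -0.91, just short of the limit of 1 in size, and 3.73% of all entries had one as low or lower.

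The other loci differed less from the control. MIR159d with nitrate was at 0.594 times its control level, MIR319b at 0.797 times, MIR156f at 0.864 times and MIR396a at 0.928 times, and MIR159f at 1.24 times. The median log2 difference of the 6 loci was -0.21, against 0.01 over all entries. Of all entries 49.0% were below the control. Of the 15 microRNA loci of other families 5 were below the control and 10 above it, with a median log2 difference of 0.38. Of the 4 further loci of the same families 3 were below it and 1 above. MIR156d was below it by little, at 0.995 times its control level. Its sign turned with equal column sums and after quantile normalization, so that 2 of the 4 were then above.

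The second comparison asked how N-deprived roots respond when strigolactone synthesis is inhibited. With TIS108 MIR156k was lower than in the control by the 2-fold limit, at 0.383 times its level there, and it was the single locus of the 6 to pass the limit in any comparison. Of 15381 entries 1.87% passed it in this comparison in either direction, and 1.85% on the lower side. Of the 6 loci, MIR159d, MIR319b and MIR396a did not reach 5 FPKM and could not have been counted. The log2 difference of MIR156k was -1.23, and 0.601% of all entries had one as low or lower. With a pseudocount of 5 in place of 1 it was -0.85 and short of the limit. MIR156f was also below the control, at 0.807 times its level.

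Both MIR159 loci of the set lay on the other side. MIR159d with TIS108 was at 1.44 times its control level and MIR159f at 1.29 times, with log2 differences of 0.31 for both, and 6.14% and 6.06% of all entries had one as high or higher. MIR396a was at 0.861 times and MIR319b at 0.964 times its control level. The median log2 difference of the 6 loci was -0.10, against -0.01 over all entries, and its sign turned with equal column sums (0.014) and after quantile normalization (0.0213). With the column sums made equal, the median of all entries moved to 0.10, and the sign of MIR319b turned, to 0.07, as it did after quantile normalization. Relative to the rescaled median the differences were -1.19 for MIR156k, -0.24 for MIR156f, 0.30 for MIR159d, 0.34 for MIR159f, -0.03 for MIR319b and -0.15 for MIR396a.

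The third comparison asked what blocking auxin action with PCIB changes in nitrate-fed roots. All 6 loci were higher with PCIB than with nitrate alone, and the signs held with the column sums made equal and with quantile-normalized columns. Under these scalings the log2 difference of MIR159f was only 0.0042 and 0.0034, so its sign carries little weight. The widest difference was that of MIR319b, at 1.89 times its nitrate level, followed by MIR159d and MIR156k, both at 1.39 times. MIR156f was at 1.25 times, MIR396a at 1.19 times and MIR159f at 1.03 times, so that the level of MIR159f was nearly the same in both groups. By the 2-fold limit 0 of the 6 loci differed, where 4.56% of 15447 entries did. MIR319b, MIR159d and MIR396a could not have been counted, as they did not reach 5 FPKM in any group. The log2 difference of MIR319b, 0.69, was reached or exceeded by 5.92% of all entries. That difference was 0.34 with a pseudocount of 5 and 0.89 with a pseudocount of 0.1.

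The median log2 difference of the 6 loci between nitrate plus PCIB and nitrate was 0.25, against -0.02 over all entries, and 47.4% of all entries were higher with PCIB. Of the 15 microRNA loci of other families 5 were higher and 10 lower, with a median of -0.40. The 4 further loci of the same families are in neither count. Of them 3 were higher with PCIB and 1, MIR156g, was lower, at 0.719 times its nitrate level. The 6 loci are few and were chosen by family, with earlier results of these data known, so they do not stand for whole families. Without replicates no test of their contrast with the other loci could be made.

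**Figure D3:**
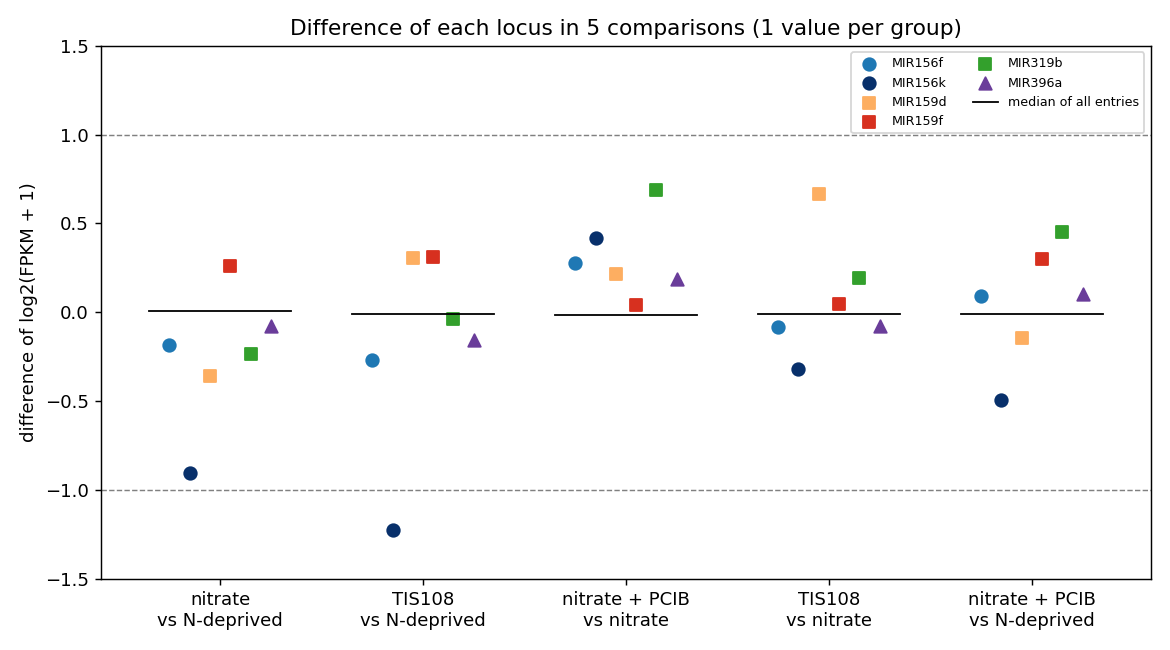
Difference of log2(FPKM + 1) (vertical axis) of the 6 loci in 5 comparisons of groups, with the median of all entries as a black line and the 2-fold limit as dashed lines. MIR156k with TIS108 against the control (-1.23) is the single point beyond a dashed line, and all 6 points lie above 0 where nitrate plus PCIB is set against nitrate.

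Comparisons of groups that share a column are not independent, and nitrate enters both the first and the third with opposite sign. Set directly against the N-deprived control, nitrate plus PCIB had 4 of the 6 loci above it and 2 below it. MIR319b was at 1.51 times its control level, MIR159f at 1.28 times, MIR396a at 1.10 times and MIR156f at 1.08 times. MIR156k was below, at 0.689 times, and MIR159d at 0.827 times. None of these 6 differences passed the 2-fold limit, where 3.91% of 15622 entries did. MIR319b, MIR396a and MIR159d could not have been counted, as they did not reach 5 FPKM. The median log2 difference was 0.10, against -0.01 over all entries. MIR156k with nitrate plus PCIB, at 8.84 FPKM, thus stood between its levels with nitrate (6.38 FPKM) and in the control (12.8 FPKM), and MIR319b, at 4.11 FPKM, above both of its own (2.17 and 2.73 FPKM).

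TIS108 without nitrogen and nitrate were also compared directly. MIR159d was the locus that differed most, at 1.71 FPKM under TIS108 and 0.706 FPKM under nitrate, a ratio of 2.42. Its log2 difference was 0.67, and 2.25% of all entries had one as high or higher, but it was 1.17 with a pseudocount of 0.1 and 0.23 with a pseudocount of 5. MIR319b with TIS108 was at 1.21 times its nitrate level and MIR159f at 1.04 times. MIR396a was at 0.928 times, MIR156f at 0.935 times and MIR156k at 0.772 times, so that 3 loci were above and 3 below nitrate. By the 2-fold limit 0 of the 6 differed, where 1.35% of 15066 entries did. Those entries all reached 5 FPKM in 1 of the groups or both, as only MIR156f, MIR156k and MIR159f did among the 6. MIR159d could therefore not have been counted at any pseudocount. The median log2 difference was -0.01 over the 6 loci and -0.01 over all entries.

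The table holds 4 further loci of these families, MIR156d, MIR156g, MIR159a and MIR396d, which show how far loci of one family went together. In the RefSeq annotation the MIR156 family has 11 loci, MIR159 has 9, MIR319 has 4 and MIR396 has 8, of which the table holds 4, 3, 1 and 2. MIR156g, the most abundant MIR156 locus in each group, stood at 16.4 FPKM in the control, 14.7 FPKM under nitrate, 11.6 FPKM under TIS108 and 10.6 FPKM with nitrate plus PCIB. MIR156d stood at 7.06, 7.03, 9.47 and 8.61 FPKM. The 4 MIR156 loci therefore differed in which group was highest: the control for MIR156k and MIR156g, TIS108 for MIR156d and nitrate plus PCIB for MIR156f. Between nitrate plus PCIB and nitrate, MIR156g went the other way from the other 3, at 0.719 times its nitrate level. Between TIS108 and the control MIR156d was the exception, at 1.34 times its control level.

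The summed level of the 4 MIR156 loci was 44.2 FPKM in the control, 34.9 FPKM under nitrate, 32.3 FPKM under TIS108 and 36.5 FPKM with nitrate plus PCIB. MIR156k made up 29.1% of this sum in the control, 18.3% under nitrate, 15.2% under TIS108 and 24.3% with nitrate plus PCIB. The share of MIR156d was 16.0% in the control and 29.3% with TIS108, while that of MIR156g was 37.2% and 35.9% and that of MIR156f 17.7% and 19.6%.

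In the MIR159 family MIR159a was the main locus, at 15.9 FPKM in the control, 14.9 FPKM under nitrate, 14.0 FPKM under TIS108 and 17.6 FPKM with nitrate plus PCIB. It was lower with TIS108 than in the control, at 0.877 times, where MIR159d and MIR159f were higher. The summed level of the 3 MIR159 loci was accordingly nearly level, at 21.9 FPKM in the control, 21.6 FPKM under nitrate and 21.9 FPKM under TIS108, and was 24.8 FPKM with nitrate plus PCIB.

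In the MIR396 family MIR396d stood at 12.6 FPKM in the control, 13.9 FPKM under nitrate, 10.5 FPKM under TIS108 and 16.4 FPKM with nitrate plus PCIB. As at MIR396a, TIS108 was the lowest group and nitrate plus PCIB the highest. Both loci were at 1.19 times their nitrate level with PCIB, and MIR396d made up 81.3% to 84.1% of the summed level of both loci in every group.

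**Figure D4:**
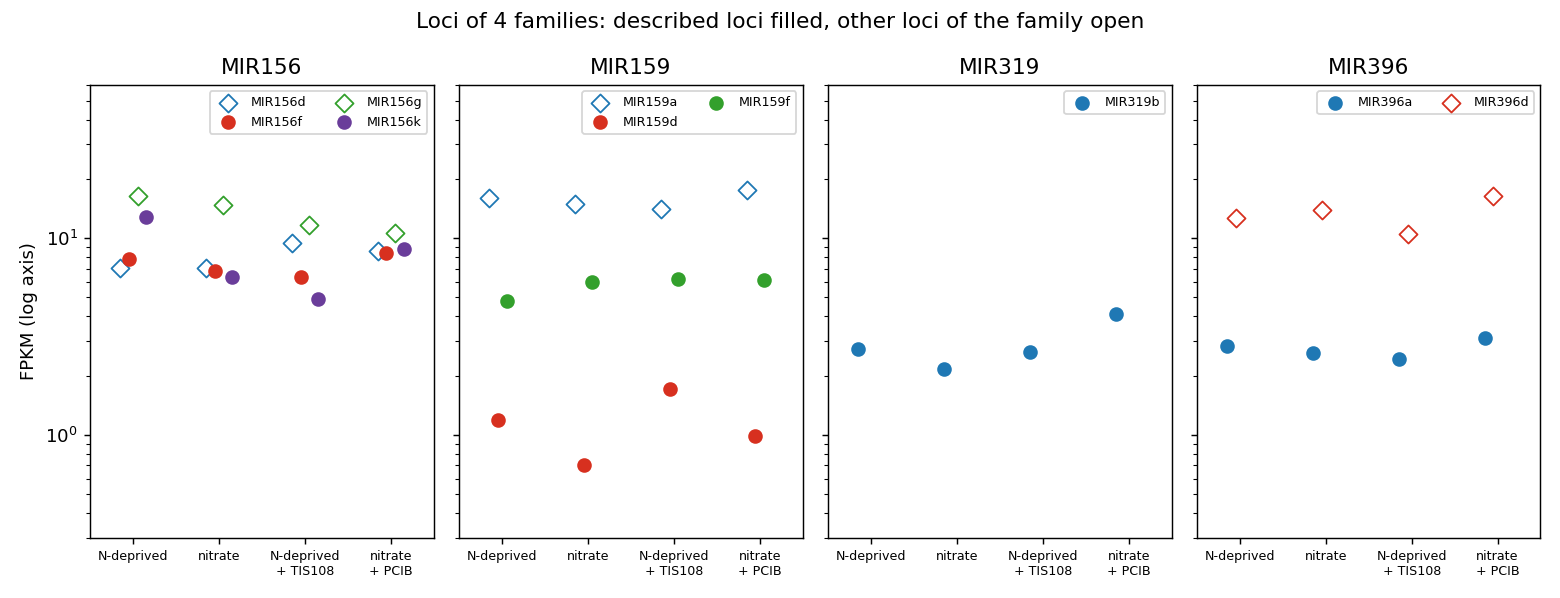
FPKM (vertical axis, log scale) of the 10 loci of the 4 families in the 4 groups, 1 point per group, with the 6 loci described here filled and the other 4 open. MIR159a and MIR396d stand above the other loci of their families in every group, and MIR156k moves from 12.8 FPKM in the control to 4.92 FPKM with TIS108 while MIR156d moves from 7.06 to 9.47 FPKM.

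Likeness of pattern was measured by Pearson's r of log2(FPKM + 1) over the 4 groups, columns that share 1 normalization and are too few for more than a description. Among the 6 loci the closest pair was MIR156f and MIR396a (r = 0.98), and the most opposed pair was MIR156k and MIR159f (r = -0.82). The ranges of MIR156f, MIR396a and MIR159f were only 0.36, 0.26 and 0.31, below the 0.5 set for the features that follow. The 2 MIR156 loci had r = 0.81 and the 2 MIR159 loci r = 0.01. Among the 46 other microRNA loci and organelle genes with a range of at least 0.5, the pattern most like that of MIR319b was that of MIR169e (r = 0.99), whose family represses NF-YA genes, which encode transcription factors. MIR169e stood at 2.53 FPKM in the control, 2.14 FPKM under nitrate, 2.38 FPKM under TIS108 and 3.83 FPKM with nitrate plus PCIB. Next to it came nad6 (r = 0.94), a mitochondrial gene of NADH dehydrogenase, at only 0.949 to 1.96 FPKM over the groups.

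The candidates were only microRNA loci and organelle genes, since 0 of the 26061 nuclear gene models could be matched to a name. Of the 25 microRNA loci 17 had a range of at least 0.5, so organelle genes made up most of the 46 or 47 candidates per locus. The share of mitochondrial genes among these organelle genes was not worked out. How often mitochondrial genes appear here therefore shows no tie to mitochondria. Within this pool, mitochondrial genes were the nearest named features of most other loci. They were orf140-b and orf127, open reading frames, for MIR156k (r = 0.97 and 0.94), trnR-a, a tRNA gene, and nad6 for MIR156f (r = 0.95 and 0.94), and ccmFN, a gene of cytochrome c maturation, and nad6 for MIR396a (r = 0.97 and 0.93). For MIR159f they were mitochondrial rpl16, a ribosomal protein gene, and MIR169c (r = 0.92 and 0.58), and for MIR159d MIR398b and MIR164b (r = 0.71 and 0.40). Like nad6, several of these genes stood at low levels over the groups. They were rpl16 at 0.636 to 1.64 FPKM, orf140-b at 0.879 to 2.40 FPKM and ccmFN at 1.26 to 2.51 FPKM. The levels of trnR-a and orf127 were higher. Of 7742 entries with a range of at least 0.5, 1.01% reached the r of rpl16 with MIR159f, 1.61% that of MIR169e with MIR319b, 2.34% that of ccmFN with MIR396a, 5.10% that of orf140-b with MIR156k, 5.32% that of trnR-a with MIR156f and 8.19% that of MIR398b with MIR159d. The r of nad6 was reached by 5.22% with MIR396a, 6.26% with MIR156f and 10.2% with MIR319b. For the other second features the share was 7.3% for MIR169c, 8.52% for orf127 and 24.5% for MIR164b.

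The target genes of these microRNAs and the genes that process microRNA precursors could not be set beside the loci. RefSeq names 26 genes of the SPL list, 21 of the GRF list, 9 of the TCP list, 1 of the GAMYB list and 3 of the list of processing genes, and 0 of them are paired with an identifier of the table. Of the 9 plastid genes of photosynthesis listed as markers of green tissue, the 4 found in the table (psbA, psaB, rbcL and petA) were between 0.0823 and 5.58 FPKM. The highest of these was petA, at 3.73 FPKM in the control and 5.03 to 5.58 FPKM in the other groups. The sums of the 4 columns ranged from 447300 FPKM with TIS108 to 497447 FPKM in the control.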

How the data were processed

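Poly(A) RNA of B73 primary roots was sequenced in 12 samples, 3 per group, grouped by sample title. Per the submitters' processing notes, CASAVA 1.8, Trimmomatic 0.39, TopHat2 2.0.13 and the build B73 RefGen_v4 were used; the program that computed FPKM is not stated there. The authors deposited FPKM values, 1 column per group; how replicates were combined is not given. FPKM of short features such as microRNA loci is unstable, and depends on the annotated length and on the total of mapped fragments.

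Differences were taken on the log2(FPKM + 1) scale (pandas 2.3.3, numpy 2.4.6), which understates those of low entries; ratios are plain ratios of FPKM. A 2-fold limit with at least 5 FPKM in the higher column was used, and calling was tested on simulated data. Whether the calls hold at the low levels of these 6 loci was not tested. With 1 value per group, 0 tests across replicates were made. All 6 loci are named, and for each the 2 named features of highest r. The members and lists were chosen with earlier results of these data known. RefSeq (Zm-B73-REFERENCE-NAM-5.0) gave names and neighbours alone. Alternatives were pseudocounts of 0.1 and 5, columns scaled to equal sums, quantile normalization, and other minimum levels.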

Additional observations from a re-analysis of the deposited data

How the results depend on the processing

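No paired analysis was possible because the deposited table has 1 column per group and carries no replicate numbers; leaving out replicates could not be run for the same reason. The number of the 6 loci past the 2-fold limit was the same as reported in all 5 comparisons with a pseudocount of 0.1, with either scaling, with no minimum level and with a mean of 5 FPKM or more, and with a pseudocount of 5 it became 0 for TIS108 against the control, because MIR156k fell short. The median log2 difference of the 6 loci for TIS108 against the control was 0.014 with equal column sums and 0.0213 after quantile normalization, and that for TIS108 against nitrate was 0.0423 with equal column sums. For nitrate plus PCIB against nitrate it was 0.37 with a pseudocount of 0.1 and 0.14 with a pseudocount of 5. The other medians moved by at most 0.1 and kept their sign. Of the 30 differences of single loci, 15 moved by more than 0.1 with a pseudocount of 5 and 1 more, that of MIR156k with TIS108 against the control, no longer passed the limit. More than 0.1 of movement was seen in 8 differences at a pseudocount of 0.1, in 8 after quantile normalization and in 5 with equal column sums. What replicates or depth would add is unknown.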
